A study of Rattus norvegicus with 40 samples.

Results

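The cytosolic and mitochondrial heat shock chaperones were examined as a list of 39 named genes: the Hsp70, Hsp110 and Hsp90 families, the small heat shock proteins, the mitochondrial chaperonin, the J-domain and BAG proteins, other co-chaperones, and the heat shock factors Hsf1 and Hsf2. Of these, 36 had a probe set annotated to that gene alone, and 35 were bright enough to be tested, out of 10304 genes tested in all. The samples were total RNA from rat cerebral cortex on 40 Affymetrix 1-colour expression arrays. The 20 arrays of the preconditioned group came from rats given hypoxic preconditioning, and the 20 arrays of the sham group from rats given sham preconditioning in normal oxygen. Samples of each group are numbered 1 to 20 and listed in runs of 5 per group, so that 4 runs were compared, numbers 1 to 5, 6 to 10, 11 to 15 and 16 to 20. The labels do not say what the runs are, and give no strain, age, sex, oxygen level or duration of exposure. Nor do they say that each sample is a separate animal, so the spread behind the p-values may be partly technical.

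Heat shock chaperones hold unfolded proteins and refold them. Hsp70 proteins bind short exposed stretches of a client, J-domain proteins deliver clients and trigger ATP hydrolysis, and Hsp110 and BAG proteins release the nucleotide. Hsp90 then matures signalling proteins with the help of co-chaperones, while Hspd1 and Hspe1 form the folding chamber of the mitochondrial matrix. When proteins misfold, the transcription factor HSF1 is freed to bind heat shock elements in the promoters of many of these genes. In brain, the inducible Hsp70 genes are well known to be switched on by ischaemia and heat.

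The heat shock element is built from inverted repeats of the unit GAA. Of the 39 genes, 32 had an entry in the RefSeq promoter table of assembly GRCr8, which covers 250 bases before to 50 bases after the gene start. A pair of inverted units (GAANNTTC or TTCNNGAA, either strand) stood in 16 of the 32 windows (50%), against 15.4% of 27457 promoters of the same length. A run of 3 units (GAANNTTCNNGAA or TTCNNGAANNTTC, which also contains the shorter form) stood in 6 of 32 (18.8%), those of Chordc1, Dnaja1, Hspa8, Hspd1, Hspe1 and Hsph1, against 0.736% of all promoters. The hypoxia-response core ACGTG, on either strand, stood in 8 of 32 (25%), against 19.7% of all. Stretches from 5 of the 6 genes are printed here because they hold the letters HSF1 is known to bind, in genes whose transcripts are compared in what follows. The long stretch of Hspa8 is left out. Capitals mark the run of units, and the rest is flanking sequence in lower case.
Chordc1: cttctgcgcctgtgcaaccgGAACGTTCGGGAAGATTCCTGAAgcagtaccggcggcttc
Dnaja1: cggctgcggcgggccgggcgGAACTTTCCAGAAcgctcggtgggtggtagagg
Hspd1: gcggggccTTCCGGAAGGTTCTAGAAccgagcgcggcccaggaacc
Hspe1: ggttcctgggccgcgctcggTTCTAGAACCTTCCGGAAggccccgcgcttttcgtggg
Hsph1: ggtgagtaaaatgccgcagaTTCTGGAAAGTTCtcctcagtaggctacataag
They lie at chr8:23650811-23650870 (Chordc1, plus strand), chr5:60638393-60638445 (Dnaja1, plus), chr9:64084242-64084287 (Hspd1, minus), chr9:64084242-64084299 (Hspe1, plus) and chr12:10427312-10427364 (Hsph1, plus). The Hspd1 and Hspe1 elements are the same bases read from opposite strands, in the stretch between this divergent pair of genes. A match to these letters is a description of the window and not evidence of binding.

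None of the 35 chaperone transcripts tested on a probe set of their own passed between preconditioned and sham cortex in any of the 4 runs. The test was limma on log2 intensity, with Benjamini-Hochberg adjustment over all 18625 probe sets tested and a threshold of 0.05. In numbers 1 to 5 the count was 0 of 35, against 2.39% of all probe sets. The count for numbers 6 to 10 was 0 of 35, against 2.22%. In numbers 11 to 15 it was 0 of 35, against 0.0698%, and in numbers 16 to 20 it was 0 of 35, against 0% of all. For the mean of the 4 run effects 0 of 35 passed, against 3.99% of all, and 0 of 35 had an effect that differed between the runs, against 0.762% of all. At an unadjusted p under 0.05 the 4 runs held 3, 10, 1 and 0 of the 35 members, the mean effect 5 and the difference between runs 2. Over all probe sets the same limit was met by 16.6%, 16.8%, 9.85% and 5.11% in the 4 runs, 19.4% for the mean effect and 12.9% for the difference between runs.

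The intervals bound how far these transcripts can have moved. The 95% interval of the difference lay within 0.5 on the log2 scale on either side of 0 for 31, 29, 32 and 33 of the 35 members in the 4 runs in order, and for 35 of 35 in the mean effect. The median difference of the members was 0.00 in numbers 1 to 5 and 0.04 in numbers 6 to 10, against -0.03 and -0.02 over all probe sets. The median size of the difference, whatever its sign, was 0.09, 0.09, 0.06 and 0.03 for the members, against 0.11, 0.11, 0.09 and 0.08 for all probe sets.

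**Figure D1:**
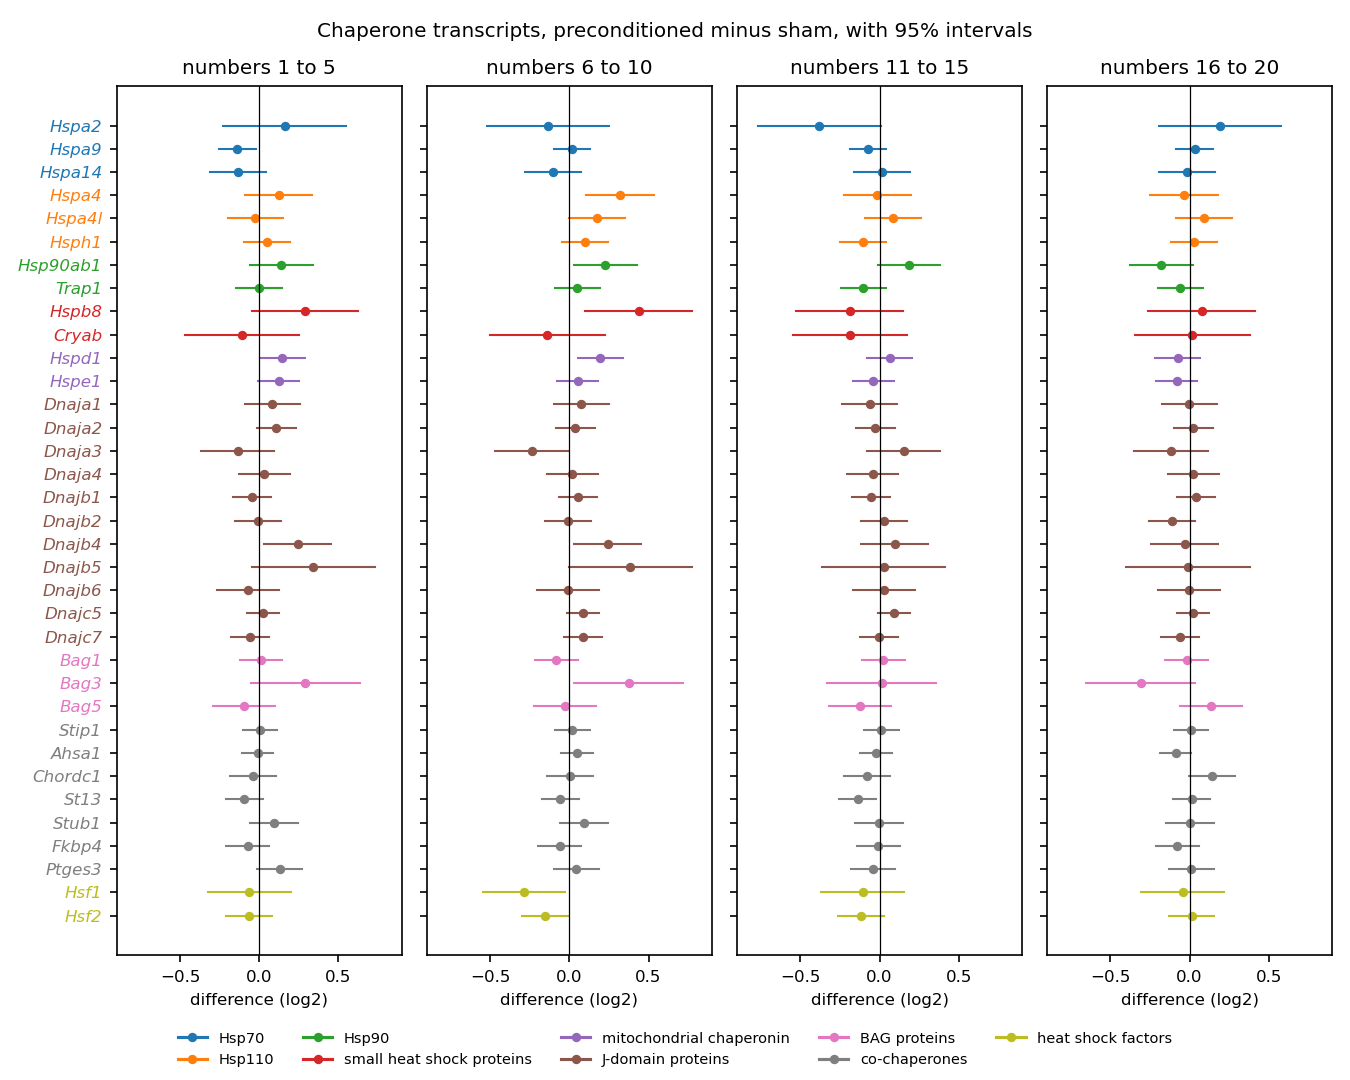
Difference in log2 intensity, preconditioned minus sham, for the 35 tested chaperone genes (rows, coloured by role) in each of the 4 number runs (panels). Points are fitted differences from 5 preconditioned and 5 sham arrays, and bars are 95% intervals of the limma fit, unadjusted. Bars that miss 0 are most frequent in numbers 6 to 10, and none of these genes passed after adjustment.

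Preconditioned arrays 5 and 6 stood apart from the other 38. Their median log2 intensities were 5.59 and 5.53, against 5.71 to 5.82 on the others. Of 1161 probe sets with a mean log2 intensity of at least 10, 76.6% were higher on array 5 than on the other 4 preconditioned arrays of its run, and 82.9% on array 6. Over all probe sets tested the shares were 23.5% and 21.7%. Among the 9 members this bright, 8 were highest on array 5 and 8 on array 6. For the tested members described one by one, differences printed for the first 2 runs are marked on the probe set used for each gene. The mark is given where they moved by over 1.5 times or turned sign without these arrays. Differences of further probe sets are not marked. Differences that are not printed may also have moved. Without them 1.85% of all probe sets passed in numbers 1 to 5, 1.42% in numbers 6 to 10 and 3.32% for the mean effect, and the members passing were 0 in each. Over all arrays, 10 of the members had an unadjusted p under 0.05 in numbers 6 to 10, against 16.8% of all probe sets, and 3 did without these arrays, against 13.9% of all.

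Among the Hsp70 proteins the inducible gene Hspa1b was not measured alone. Probe set 1368247_at is annotated to Hspa1b and to its near-identical neighbour Hspa1a, so its signal can be assigned to neither. In numbers 6 to 10, 1368247_at read 85.1, 103.8, 62.3, 102.4 and 97.4 on the preconditioned arrays, against 45.7, 28.8, 61.7, 55.9 and 51.9 on the sham arrays. Every preconditioned value exceeded the highest sham value, though the lowest of them by less than 1 intensity unit. The difference was 0.91 ± 0.20 on the log2 scale (SE), 1.88-fold, with an adjusted p of 0.00941 in the limma fit, so this probe set rose. In numbers 1 to 5 it read 58.6, 53.8, 38.1, 65.2 and 61.3 on the preconditioned arrays, against 51.8, 37.7, 22.5, 48.0 and 51.9 on the sham arrays. Those groups overlapped, and the difference of 0.43 ± 0.20 (SE) did not pass (limma adjusted p = 0.283). The differences were -0.05 in numbers 11 to 15 and 0.36 in numbers 16 to 20, and neither passed. The mean of the 4 run effects was 0.41 ± 0.10 (SE), with an adjusted p of 0.0159 in limma, and passed. Whether the effect differed between runs did not pass (limma F-test, adjusted p = 0.290).

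The result for 1368247_at was as large without preconditioned arrays 5 and 6, at 0.92 ± 0.22 (SE, limma adjusted p = 0.0202) in numbers 6 to 10. Over 20 alternatives in that run the adjusted p lay between 0.00223 and 0.0614. Leaving out each of the 10 arrays of that run in turn gave 0.73 to 1.03, with adjusted p between 0.00355 and 0.0598. The call was lost in 1 of these 10 fits, without sham array 7, which held the lowest sham value. It was also lost when the 10 arrays of the run were fitted alone (0.0614). For the mean effect the call was lost without numbers 1 to 5 (adjusted p = 0.0768), without numbers 6 to 10 (0.388) and with no run in the model (0.0898), and over 14 alternatives it lay between 0.00531 and 0.388.

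Hspa1a is not on the list, but it has a probe set of its own, 1370912_at, looked at after the values of the joint probe set were seen. Probe set 1370912_at read 75.7, 93.1, 58.5, 92.8 and 74.1 on the preconditioned arrays of numbers 6 to 10, against 67.0, 42.4, 37.9, 80.3 and 48.1 on the sham arrays. The groups overlapped, and the difference of 0.55 ± 0.18 (SE) did not pass (limma adjusted p = 0.0975). In numbers 11 to 15 it read 40.6, 48.8, 57.7, 42.4 and 46.3 on the preconditioned arrays, against 25.6, 30.7, 34.2, 38.9 and 34.4 on the sham arrays. There the groups did not overlap, the preconditioned arrays being the higher. How many of all probe sets separate in that way in a run was not counted. The difference of 0.53 ± 0.18 (SE) did not pass either (limma adjusted p = 0.324). The 2 probe sets thus differed in numbers 11 to 15, where 1368247_at showed -0.05. The mean of the 4 run effects for 1370912_at was 0.29 ± 0.09 (SE, limma adjusted p = 0.0647).

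**Figure D2:**
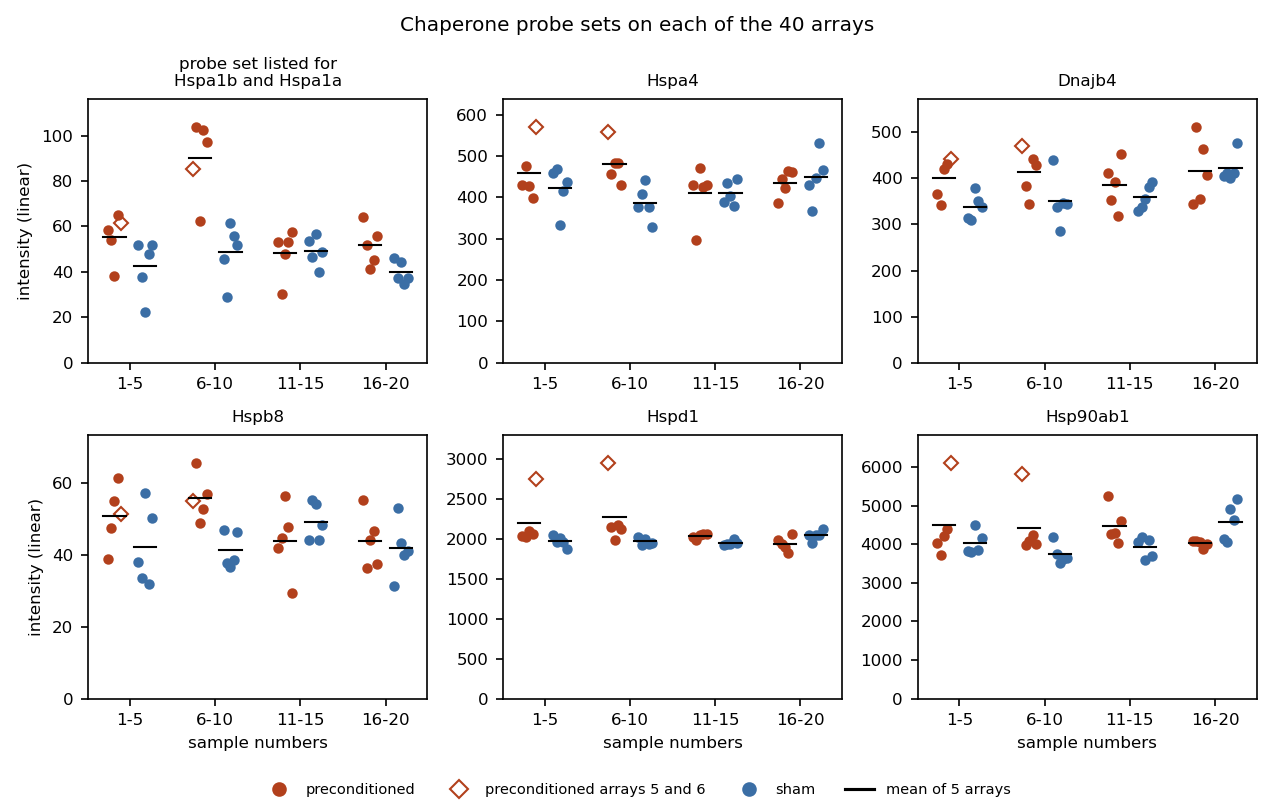
Linear intensity of 6 probe sets on each of the 40 arrays, by number run, with preconditioned arrays left of sham arrays, and horizontal lines at the mean of 5 arrays. Open diamonds are preconditioned arrays 5 and 6. In numbers 6 to 10 the joint Hspa1b and Hspa1a probe set reads 62.3 to 103.8 on the preconditioned arrays and 28.8 to 61.7 on the sham arrays, while the open diamonds are the highest points of Hspd1 and Hsp90ab1 in the first 2 runs.

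The constitutive Hsp70 gene Hspa8, the everyday cytosolic member of the family, was read by probe set 1398240_at, which is annotated to Hspa8 and to Haus8l2 together. In numbers 1 to 5, 1398240_at read 6886, 6291, 7070, 7213 and 10893 on the preconditioned arrays, against 5808, 6851, 6739, 6282 and 6307 on the sham arrays. The value of 10893 was array 5, and in numbers 6 to 10 the highest value was again the array that stood apart, array 6 at 10555. The difference in numbers 1 to 5 was 0.24 ± 0.11 (SE) over all arrays and 0.10 ± 0.06 (SE) without these arrays, and neither passed (limma adjusted p = 0.253 and 0.482). The difference in numbers 6 to 10 was 0.17 over all arrays and 0.03 without them. The probe sets shared by Hsp90aa1, the stress-inducible cytosolic Hsp90, and the pseudogene Hsp90aa1-ps17 differed by 0.13 and 0.16 in numbers 1 to 5 and by 0.09 and 0.14 in numbers 6 to 10, and none passed. Without arrays 5 and 6 these values were 0.06 and 0.10 in numbers 1 to 5 and 0.00 and 0.04 in numbers 6 to 10.

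Of the 3 Hsp70 genes measured alone, 0 passed. Hspa14, a ribosome-associated Hsp70, had a mean effect of -0.06 ± 0.04 (SE). Hspa9, the Hsp70 of the mitochondrial matrix, read 463.2, 533.8, 534.9, 526.9 and 456.8 on the preconditioned arrays of numbers 1 to 5, against 557.0, 529.0, 577.6, 560.7 and 540.1 on the sham arrays. The groups overlapped, with 3 preconditioned arrays below every sham array, and the difference of -0.14 ± 0.06 (SE) did not pass (limma adjusted p = 0.197). Hspa2, known for its role in sperm formation, lay between -0.38 and 0.19 over the runs, and had the widest interval of the 3.

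The Hsp110 proteins, which release nucleotide from Hsp70, included the member nearest to the threshold between preconditioned and sham, on the 1 probe set used per gene. Hspa4 read 557.8, 455.9, 483.2, 482.0 and 428.7 on the preconditioned arrays of numbers 6 to 10, against 377.4, 407.4, 442.3, 376.3 and 328.9 on the sham arrays. Of the 5 preconditioned arrays 4 lay above every sham array, and the highest was array 6. The difference was 0.32 ± 0.11 (SE), 1.25-fold, with an adjusted p of 0.0953 in limma, and 0.26 ± 0.10 (SE, adjusted p = 0.217) without arrays 5 and 6. In the other runs Hspa4 differed by 0.12, -0.01 and -0.03, the first of these being 0.04 without the arrays that stood apart, and it did not pass in any. Hspa4l, its close relative, differed by 0.18 ± 0.09 (SE) in numbers 6 to 10, and by 0.10 without the arrays that stood apart. Hsph1, whose promoter carries the 3-unit element, read 1913, 1532, 1263, 1513 and 1505 on the preconditioned arrays of numbers 6 to 10, against 1487, 1341, 1355, 1484 and 1490 on the sham arrays. Its groups overlapped, at a difference of 0.10 over all arrays and 0.02 without arrays 5 and 6.

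Of the Hsp90 genes measured alone, Hsp90ab1 is the constitutive cytosolic form and Trap1 the mitochondrial one. Hsp90ab1 read 4043, 3708, 4212, 4405 and 6101 on the preconditioned arrays of numbers 1 to 5, against 3831, 3810, 4484, 3861 and 4148 on the sham arrays. It read 5829, 3975, 4078, 4229 and 4001 on the preconditioned arrays of numbers 6 to 10, against 4190, 3745, 3508, 3615 and 3654 on the sham arrays. The highest value of each run was array 5 or array 6. The differences of 0.14 and 0.23 over all arrays came to 0.02 and 0.12 without them. Hsp90ab1 differed by 0.19 in numbers 11 to 15 and -0.18 in numbers 16 to 20, and the limma F-test for unequal run effects did not call it. Trap1 stayed between -0.10 and 0.05 over all arrays, and its first 2 differences were -0.06 and -0.02 without arrays 5 and 6.

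The small heat shock proteins hold clients without using ATP. Hspb8, which works with Bag3 in the disposal of misfolded proteins, read 54.9, 65.6, 48.8, 52.7 and 56.8 on the preconditioned arrays of numbers 6 to 10, against 46.9, 37.8, 36.7, 38.5 and 46.3 on the sham arrays. The groups did not overlap, the preconditioned arrays being the higher. How many of all probe sets separate in that way in a run was not counted. The difference of 0.44 ± 0.17 (SE) did not pass (limma adjusted p = 0.158), and its 95% interval ran from 0.10 to 0.77. Without arrays 5 and 6 it was 0.44 ± 0.18 (SE). Hspb8 differed by 0.29, -0.19 and 0.08 in the other runs, with overlapping groups in each. Cryab, the small heat shock protein of oligodendrocytes and astrocytes, differed by -0.11, -0.14, -0.19 and 0.02, the first of these being -0.20 without arrays 5 and 6.

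Hspb1, an inducible small heat shock protein known from reactive astrocytes, lay just under the filter on dim probe sets, with a mean of 4.99 against a limit of 5.00 on the log2 scale. In numbers 1 to 5, Hspb1 read 35.9, 31.5, 29.4, 38.96 and 27.4 on the preconditioned arrays, against 29.6, 21.2, 18.8, 20.9 and 18.5 on the sham arrays. Only the lowest 2 preconditioned arrays fell below the highest sham array. With no filter on any probe set the difference was 0.59 ± 0.22 (SE, limma adjusted p = 0.203), and the mean of the 4 run effects 0.36 ± 0.11 (SE, adjusted p = 0.0768). Hspb1 was higher in all 4 runs, at 0.59, 0.21, 0.38 and 0.26, and passed in none.

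The mitochondrial chaperonin pair shares a promoter region and is known to be made together. Hspd1, the chamber subunit, read 2029, 2017, 2097, 2060 and 2752 on the preconditioned arrays of numbers 1 to 5, against 2044, 1956, 2008, 1965 and 1870 on the sham arrays. In numbers 6 to 10 it read 2947, 2145, 1986, 2168 and 2117 on the preconditioned arrays, against 2023, 1916, 2001, 1937 and 1951 on the sham arrays. The single highest value of each run was array 5 or array 6. In numbers 6 to 10, 4 of the 5 preconditioned arrays still lay above every sham array. The difference of Hspd1 in numbers 6 to 10 was 0.20 ± 0.07 (SE, limma adjusted p = 0.135) over all arrays and 0.10 ± 0.04 (SE, adjusted p = 0.216) without them. Hspe1, the lid subunit, differed by 0.12, 0.05, -0.04 and -0.08 in the 4 runs, and Hspd1 by 0.14, 0.20, 0.06 and -0.08. Without arrays 5 and 6 the first 2 differences were 0.09 and -0.02 for Hspe1 and 0.06 and 0.10 for Hspd1.

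**Figure D3:**
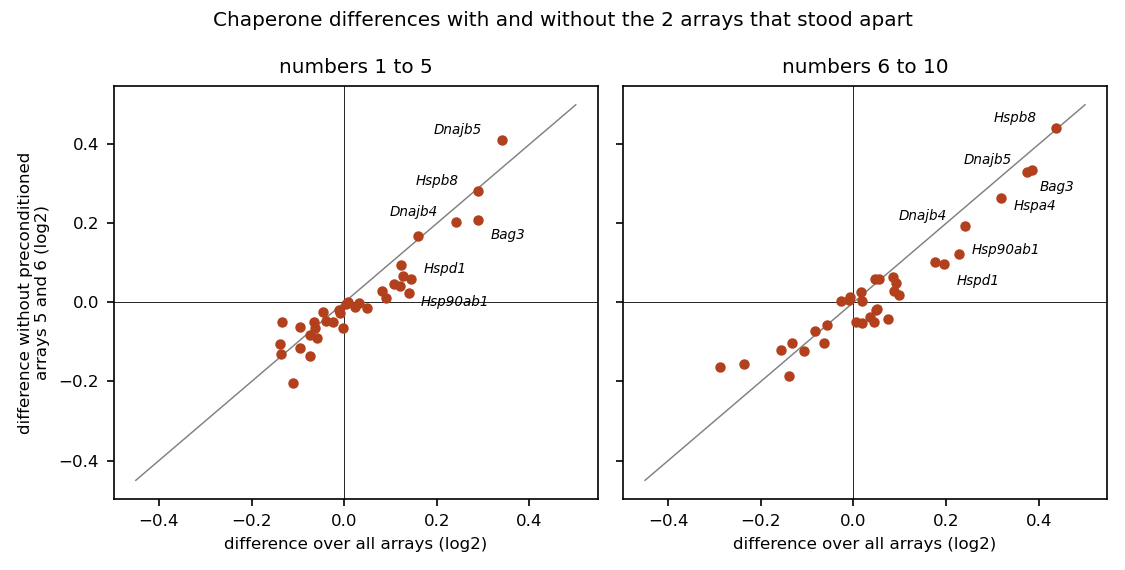
Difference in log2 intensity, preconditioned minus sham, of the 35 tested chaperone genes without preconditioned arrays 5 and 6 (vertical axis) against the difference over all arrays (horizontal axis), in numbers 1 to 5 and 6 to 10. The grey line marks equal values. Each gene is shown on the probe set used for it. Dnajb5, Hspb8, Dnajb4 and Bag3 stay at or above 0.19 in both panels. Dnajb4, Bag3, Hsp90ab1 and Hspd1 lie below the line in both, Hsp90ab1 at 0.02 and 0.12 and Hspd1 at 0.06 and 0.10.

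Among the 11 J-domain proteins, 0 passed. Dnajb4, a cytosolic partner of Hsp70, read 365.7, 343.1, 420.2, 430.3 and 443.2 on the preconditioned arrays of numbers 1 to 5, against 313.1, 309.7, 378.8, 351.0 and 337.6 on the sham arrays. Across numbers 6 to 10 it read 470.2, 383.2, 345.2, 442.1 and 429.0 on the preconditioned arrays, against 440.6, 338.0, 286.1, 347.4 and 345.1 on the sham arrays. The groups overlapped in both runs, and both differences were 0.24 ± 0.10 (SE, limma adjusted p = 0.222 in each). Its mean effect of 0.14 ± 0.05 (SE) had the lowest adjusted p of the members on the probe sets used, 0.127 in limma. Without numbers 16 to 20 the mean effect was 0.19 ± 0.06 (SE) and passed (adjusted p = 0.0392). Over 15 alternatives the adjusted p of the mean effect lay between 0.0369 and 0.523, the lowest being with the sample number as a block, where it also passed.

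Dnajb5, another J-domain partner of Hsp70, had the largest mean effect of the members on the probe sets used, 0.19 ± 0.10 (SE, limma adjusted p = 0.286). It read 347.4, 360.7, 255.1, 512.1 and 281.4 on the preconditioned arrays of numbers 1 to 5, against 232.8, 237.5, 295.2, 248.0 and 348.9 on the sham arrays. These values spread widely in both groups and overlapped, and the 95% interval of the difference ran from -0.05 to 0.73. Dnaja3, the J-domain partner of Hspa9 in mitochondria, read 123.1, 165.7, 158.9, 169.2 and 156.0 on the preconditioned arrays of numbers 6 to 10, against 173.3, 179.9, 169.6, 189.8 and 193.2 on the sham arrays. All 5 preconditioned arrays lay below all 5 sham arrays. How many of all probe sets separate in that way in a run was not counted. The difference of -0.24 ± 0.12 (SE) did not pass (limma adjusted p = 0.290), and it was -0.16 ± 0.12 (SE) without arrays 5 and 6. Dnajc5, the chaperone of synaptic vesicles, was higher in all 4 runs by 0.02 to 0.09 over all arrays and passed in none. Its first 2 differences were -0.01 and 0.03 without arrays 5 and 6. The J-domain genes known as heat shock factor targets in other cells, Dnajb1 and Dnaja1, differed by -0.05, 0.06, -0.05 and 0.04 for Dnajb1 and by 0.08, 0.07, -0.06 and 0.00 for Dnaja1. Without arrays 5 and 6 the difference of Dnajb1 in numbers 1 to 5 was -0.02. The first 2 differences of Dnaja1 were then 0.03 and -0.04, turning sign in numbers 6 to 10.

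The BAG proteins couple Hsp70 to other pathways, and Bag3 among them directs clients to autophagy. Bag3 read 55.7, 48.8, 41.2, 43.0 and 60.2 on the preconditioned arrays of numbers 6 to 10, against 27.9, 47.7, 43.4, 39.5 and 34.7 on the sham arrays. Of the 5 preconditioned arrays 3 lay above every sham array. The difference was 0.37 ± 0.17 (SE, limma adjusted p = 0.254), against 0.29, 0.01 and -0.31 in the other runs, and the test that the effect differed between runs did not pass. Bag5, which regulates Hsp70 in neurons, had a mean effect of -0.03 ± 0.05 (SE).

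The other co-chaperones bridge Hsp70 and Hsp90 or regulate them, and all 7 had 95% intervals lying within 0.5 of 0 in every run. St13, which binds Hsp70, had a mean effect of -0.07 ± 0.03 (SE, limma adjusted p = 0.167). Fkbp4, a prolyl isomerase of steroid receptor complexes, was lower in all 4 runs by 0.01 to 0.08 and passed in none. Its first 2 differences were -0.13 and -0.10 without arrays 5 and 6. Stip1, which hands clients from Hsp70 to Hsp90, differed by 0.00 to 0.02 in the 4 runs. Without arrays 5 and 6 both of its first 2 differences were 0.00. Its mean effect was 0.01 over all arrays and 0.00 without arrays 5 and 6. Stub1, a ubiquitin ligase that sends chaperone clients to the proteasome, had a mean effect of 0.05 ± 0.04 (SE), and of 0.02 without these arrays.

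On the probe sets used, the heat shock factors were lower in most runs, and neither passed. Hsf1 read 36.8, 58.9, 72.4, 42.6 and 55.5 on the preconditioned arrays of numbers 6 to 10, against 64.0, 65.0, 56.3, 71.0 and 60.4 on the sham arrays. The lowest value was array 6, and the difference of -0.29 ± 0.13 (SE, limma adjusted p = 0.247) was -0.16 ± 0.13 (SE) without arrays 5 and 6. Hsf2 read 404.4, 484.6, 442.1, 456.5 and 447.3 on the preconditioned arrays of that run, against 468.2, 506.1, 505.5, 500.8 and 507.5 on the sham arrays. Its groups overlapped by 1 preconditioned array, and the difference of -0.16 ± 0.07 (SE) did not pass (limma adjusted p = 0.256). The mean effects were -0.12 for Hsf1 and -0.08 for Hsf2. The activity of HSF1 is set mainly after translation, so these transcript levels do not measure it.

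On the probe set used for each gene, the sham arrays alone differed between the 4 runs for 2 of the 35 members (5.71%). The share over all probe sets tested was 13.7%, by a limma F-test with Benjamini-Hochberg adjustment. Chordc1, an Hsp90 co-chaperone whose promoter carries the longest element printed here, averaged 387.8 ± 31.3, 385.9 ± 13.2, 367.6 ± 17.9 and 304.9 ± 25.8 in the 4 sham runs in order (SD, n = 5 arrays each, limma adjusted p = 0.00188). Its sham values in numbers 16 to 20 were 295.6, 337.5, 268.6, 304.2 and 318.4, all below every sham value of the first 3 runs. The preconditioned arrays of Chordc1 averaged 376.7, 388.6, 349.8 and 336.2 in the same runs. St13 averaged 906.6, 925.8, 903.5 and 805.6 in the sham runs, with preconditioned means of 849.2, 890.0, 822.0 and 812.3, and an adjusted p of 0.0377 in limma for the sham runs. The St13 call was lost with median centring of the arrays (adjusted p = 0.122), with no mean trend (0.0560) and with the mean of all its probe sets (0.106). Over 9 alternatives the adjusted p lay between 0.0229 and 0.122 for St13, and between 0.000883 and 0.0152 for Chordc1, which kept its call in each. Markers of microglia, oligodendrocytes, astrocytes and neurons were also higher in the higher-numbered sham runs, microglia at a mean log2 level of 6.36 in numbers 1 to 5 and 6.92 in numbers 16 to 20, with 2 of 5 microglial and 3 of 4 oligodendrocyte markers passing the same test. Their part in the levels of Chordc1 and St13 was not tested. In a tissue sample, fewer cells of a type and less RNA per cell cannot be told apart.

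**Figure D4:**
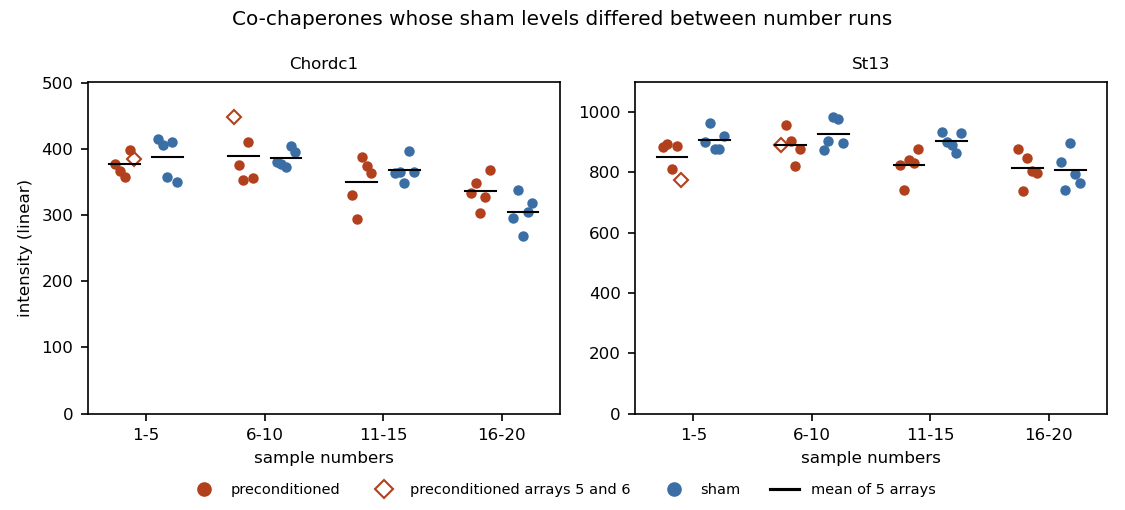
Linear intensity of Chordc1 and St13 on each array by number run, with preconditioned arrays left of sham arrays and horizontal lines at the mean of 5 arrays. Open diamonds are preconditioned arrays 5 and 6. The sham means of numbers 16 to 20 are 304.9 for Chordc1 and 805.6 for St13, the lowest of the 4 sham runs.

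Other branches of the folding machinery were read from further lists. Of the cytosolic CCT chaperonin and its partner prefoldin, 13 of 14 genes were tested and 0 passed between preconditioned and sham cortex in any run. Of 24 other Hsp70 and Hsp90 partners 20 were tested and 0 passed, and of 14 genes of mitochondrial import and proteolysis 11 were tested and 0 passed. The chaperones of the endoplasmic reticulum are controlled by the unfolded protein response. Of 17 tested, 2 fell in numbers 6 to 10, where 2.22% of all probe sets passed: Sdf2l1, a luminal chaperone cofactor, by 0.55 ± 0.11 (SE, limma adjusted p = 0.00348) and Creld2, an endoplasmic reticulum stress gene, by 0.58 ± 0.16 (SE, adjusted p = 0.0394). Hspa13, a microsomal Hsp70, fell by 0.28 ± 0.07 (SE, adjusted p = 0.0271) in numbers 1 to 5, a call lost without arrays 5 and 6 (0.0601). For the mean effect, where 3.99% of all probe sets passed, Sdf2l1, Serpinh1 and Dnajb11 fell. The call of Dnajb11 was lost without these arrays (limma adjusted p = 0.0754). Between sham runs 11 of these 17 genes differed, against 13.7% of all probe sets, among them Hspa5, the central Hsp70 of the endoplasmic reticulum (limma adjusted p = 8.7e-09).

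Among 8 of 14 other heat-responsive genes that were tested, 2 rose in numbers 1 to 5, where 2.39% of all probe sets passed. Hmox1, which breaks down haem, rose by 0.87 ± 0.23 (SE, limma adjusted p = 0.0270), and Gadd45g, a growth arrest gene, by 0.81 ± 0.17 (SE, adjusted p = 0.00527). The cold-inducible RNA-binding proteins, which mark a fall in temperature, did not pass. Cirbp differed by 0.08, 0.21, 0.00 and 0.01 in the 4 runs, and Rbm3 by 0.03, -0.06, 0.01 and -0.04.

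Markers of other cell types moved in the same comparisons. Of 6 endothelial markers, 5 passed in numbers 1 to 5, 4 higher and 1 lower, and 3 in numbers 6 to 10. Over all probe sets 2.39% passed in numbers 1 to 5 and 2.22% in numbers 6 to 10. Without arrays 5 and 6 the calls of Pecam1 and Vwf in numbers 1 to 5 and of Vwf in numbers 6 to 10 were lost. The mean log2 level of the 6 was 7.51 to 7.83 on the preconditioned arrays and 7.19 to 7.46 on the sham arrays in numbers 1 to 5. Gfap, the astrocyte filament protein, rose by 1.02 ± 0.19 (SE, limma adjusted p = 0.000902) in numbers 6 to 10. It also rose in numbers 11 to 15, by 1.07 ± 0.19 (SE, limma adjusted p = 0.0051). In numbers 6 to 10 the mean log2 level of the 6 astrocyte markers was 9.87 to 10.37 on the preconditioned arrays and 9.71 to 10.11 on the sham arrays. Of the 6 markers 3 were higher and 1, Gfap, passed, and their median difference was 0.00. The 2 tested blood markers averaged 9.73 to 9.98 on the preconditioned arrays of that run and 9.23 to 9.73 on the sham arrays, and neither passed. The part of these markers in the rise of 1368247_at was not tested. The 6 neuronal markers averaged 10.04 to 10.65 on the arrays, and 0 of the 5 tested cortical projection neuron markers passed in any run.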

How the data were processed

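The 40 arrays were Affymetrix 1-colour arrays of total RNA. The deposited unit is intensity on a linear scale, given per probe set for each array; the software behind them is not given in the sources used here. Without the lowest and highest 2% of probe sets, every array averaged between 150.04 and 150.06, so they had been scaled to a common mean. Intensities under 16 were set to 16 and log2 was taken. After 57 control probe sets were left out, probe sets with a mean at or above the 40th percentile (31.9) were kept, 18625 of 31042. Array medians spanned 0.29 on the log2 scale, and no further normalization was applied. No detection calls were used. Each gene took its single-gene probe set with the highest mean, by the platform annotation, and all symbols were current in the RefSeq table of GRCr8.

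A single limma fit (limma 3.58.1, R 4.3.3) of 8 group means, group by number run, with a mean trend gave 7 tests, two-sided, adjusted by Benjamini-Hochberg. The fit was tested on data drawn with known changes. The members, lists and tests were chosen with earlier results of these data known. Every member past the threshold is named, and otherwise 2 to 4 per role with the largest mean effects. Hsph1, Dnajb1, Dnaja1, Stip1, the shared probe sets and the further probe sets of Dnajc5, Dnajb5, Hsp90ab1 and Hsf2 were added after their values were seen. Alternatives covered normalization, floor, pseudocount, filter, variance trend, probe set choice, the sample number as a block and arrays left out. Samples of equal number were not treated as paired. The number of arrays limits the precision.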

Additional observations from a re-analysis of the deposited data

Results flagged for a closer look

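In each set of 5 arrays of 1 group and run, the highest and lowest array were set against the other 4 for 40 probe sets, those of the 35 tested members, the 4 that read Hspa1b, Hspa8 or Hsp90aa1 jointly with another gene, and that of Hspa1a. In 35 of the 320 sets (10.9%) 1 array stood apart, its gap to the nearest other array being over 0.71 of the range of the set, where chance alone does this in about 1 in 20. All values are log2 intensities.

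Preconditioned array 5 held 7 probe sets that stood apart from the other 4 preconditioned arrays of numbers 1 to 5. High were 1372701_at (Hsp90aa1 and its pseudogene) at 12.87 (others 12.48 to 12.57), 1398240_at (Hspa8 and Haus8l2) at 13.41 (others 12.62 to 12.82), Dnaja1 at 11.45 (others 11.14 to 11.21), Dnaja2 at 10.69 (others 10.35 to 10.43), Dnajc5 at 10.46 (others 10.27 to 10.31), Hspd1 at 11.43 (others 10.98 to 11.03) and Ptges3 at 11.73 (others 11.39 to 11.45). Preconditioned array 6 held 8 probe sets that stood apart from the other 4 preconditioned arrays of numbers 6 to 10. High were 1388850_at (Hsp90aa1 and its pseudogene) at 12.59 (others 11.96 to 12.12), 1398240_at at 13.37 (others 12.63 to 12.73), Dnaja1 at 11.83 (others 11.20 to 11.32), Dnaja2 at 10.73 (others 10.32 to 10.43), Hsp90ab1 at 12.51 (others 11.96 to 12.05), Hspd1 at 11.52 (others 10.96 to 11.08) and Ptges3 at 11.84 (others 11.31 to 11.44). Low was Dnaja3 at 6.94 (others 7.29 to 7.40).

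Among the other preconditioned arrays, values stood apart on the high side for Ahsa1 on array 7 at 9.16 and Dnajb6 on array 10 at 10.31. The low side held values for 1388850_at on array 20 at 11.87, Bag5 on array 12 at 7.04, Dnajb6 on array 13 at 10.16, Dnajc7 on array 19 at 9.09, Hspa14 on array 8 at 7.63 and Hspa4 on array 12 at 8.21. Among the sham arrays, values stood apart on the high side for Dnajb4 on array 20 at 8.90, Hsf1 on array 18 at 6.70, Hsf2 on array 16 at 8.98 and Stub1 on array 15 at 10.08. On the low side of the sham arrays values stood apart for Dnaja1 on array 17 at 11.01, Dnaja2 on array 5 at 10.18, Dnajb1 on array 12 at 8.69, Hsf1 on array 15 at 6.05, Hsf2 on array 6 at 8.87, Hspa4l on array 13 at 7.88, Hspa9 on array 12 at 9.03 and Stip1 on array 8 at 9.24.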

How the results depend on the processing

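Of the members' values recomputed under the alternatives, 4217 kept their side of the threshold without a marked shift. A further 9 kept it but shifted by at least the residual SD of the fit. A call was lost by 3 and gained by 6, and of the values called in either fit 0 turned sign. Differences without a call were not counted by sign, and some turned, such as Dnaja1 in numbers 6 to 10 without preconditioned arrays 5 and 6. The count of members passing for the mean of the 4 run effects was 1 in place of 0 with the replicate block of the sample number (Dnajb4, 0.14 ± 0.04 SE, limma adjusted p = 0.0369) and 1 without numbers 16 to 20 (Dnajb4, 0.0392). Between sham runs it was 1 in place of 2 with median centring and 1 without the mean trend. Hsp90ab1 joined that count with quantile normalization (limma adjusted p = 0.00167) and without preconditioned arrays 5 and 6 (0.0102), Dnajb5 (0.0310) and Hsf2 (0.0485) with the mean of all probe sets, and Hspb1 (0.0255) with no filter. In every fit that left out 1 array, the count of members passing stayed 0 in each run.

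For Hspa1a, probe set 1370912_at passed for the mean effect with quantile normalization (limma adjusted p = 0.0373), median centring (0.0312) and without numbers 16 to 20 (0.0215), and in numbers 6 to 10 without preconditioned array 8 (0.0484) or sham array 9 (0.0395).

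Over all probe sets, counts moved by over 1.5 times as follows. In numbers 1 to 5, 445 passed, against 161 with the 10 arrays of the run alone and 268 to 289 without preconditioned array 5 or sham array 3 or 4. In numbers 6 to 10, 413 passed, against 96 with the run alone, 265 without arrays 5 and 6, 677 with the replicate block, and 217 to 236 without preconditioned array 6 or sham array 7 or 8. In numbers 11 to 15, 13 passed, against 3 to 41. For the mean effect 744 passed, against 166 with no run in the model, 92 without numbers 1 to 5, 98 without numbers 6 to 10 and 1236 without numbers 16 to 20. For the difference between runs 142 passed, against 56 to 74 without numbers 1 to 5, 11 to 15 or 16 to 20. The causes were not tested.

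Equal sample numbers do not pair samples by the labels. Deviations from the group means correlated at over 0.1 in 15 of 20 same-number pairs (0.0312 to 0.393), and 19 of 20 preconditioned arrays correlated best with the sham array of their own number, a hint from the data and not the design. With the replicate block no member's run effect passed. Among the tested members Dnajb5 had the widest intervals, followed by the dim members Hspa2, Cryab, Bag3 and Hspb8. The shared probe sets cannot be split between their genes.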
